A study of Mus musculus with 8 samples.

Results

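Collagens are the triple-helical proteins of the extracellular matrix, each built from 3 like or unlike chains, with a separate gene for each kind of chain. The collagen chain genes were taken as every row of the gene table whose symbol is Col, a type number, the letter a and a chain number, which gave 44 of 21899 genes. Members were set by symbol and not by any measured value, but the family was chosen with earlier results of these data known. They were measured by RNA sequencing of poly(A) RNA in mouse femur cells labelled as mesenchymal stem cells of the bone marrow, which are stromal progenitors able to give rise to bone, fat and cartilage. Treated cells received 10 µM ellagic acid (EA), a plant polyphenol, for 48 h, and control cells received the matching dose of the solvent DMSO for 48 h, with 4 libraries in each group. Strain, age and genotype of the mice are not stated in the labels. Whether each library stands for its own animal or culture is not stated either, so the p-values describe spread among libraries that may be technical repeats.

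Collagen chains are made as precursors in the endoplasmic reticulum, hydroxylated, folded into a triple helix of like or unlike chains, secreted, trimmed and cross-linked. Fibrillar collagens, above all type I, form the load-bearing fibrils of bone and stroma. Fibril-associated collagens with interrupted helices (FACITs) coat those fibrils, type VI forms beaded filaments around cells, type IV forms the sheet of basement membranes, and type VIII forms short-chain networks. Since many collagens are assembled from unlike chains, the balance between chain mRNAs within a cell is a quantity of its own.

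Total counts ranged from 14112519 to 17390200 reads per library. Stromal marker genes stood at unlike levels. The summed level of 13 markers was 3075 to 3394 CPM (counts scaled by library total and TMM factor) in control and 4077 to 4267 in EA. Itgb1 was the highest of them, at 898 and 1327 CPM. Thy1 was low in both groups (0.173 and 0.130 CPM), as were Lepr (0.824 and 1.28 CPM), Eng (2.16 and 3.53 CPM) and Nt5e (4.39 and 6.27 CPM). Single stromal markers went in different directions, 6 of 12 tested being higher, among them Pdgfra (log2 fold change 2.20) and Pdgfrb (1.45), and 3 lower, Vcam1 (−0.57), Prrx1 (−0.59) and Ly6a (−1.49), and with library totals 3 were higher and 5 lower. Over all tested genes 33.1% were higher and 34.2% lower, and with library totals 16.5% and 61.1%. Of 10 haematopoietic and macrophage markers, 7 were below 1 CPM, Ptprc among them at 0.228 and 0.300. The sum of the 10 was 59.6 to 74.9 CPM in control and 59.2 to 64.0 in EA, almost all of it Lyz2 and Cd14. These 2 went in opposite directions, Lyz2 from 34.3 to 51.0 CPM and Cd14 from 34.0 to 9.65. Summed endothelial, adipocyte and epithelial markers were each no higher than 8.04 CPM in every library. The sum of 7 osteoblast markers was 18.9 to 28.03 CPM in control and 41.8 to 57.6 in EA, with no overlap. Of these, Sp7, a bone transcription factor gene, rose from 2.04 to 17.5 CPM, Ibsp from 1.85 to 17.5 and Alpl from 0.0561 to 2.03, while Phex fell from 5.80 to 2.10 and Dmp1 from 10.4 to 7.67. The part of osteoblast-like cells in the collagen values, those of type I included, was not tested. In these bulk libraries, fewer cells of a type and less RNA per cell cannot be told apart.

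Collagen mRNA shifted in make-up with EA, with more transcripts of types XII, VI and VIII and of the type IV chains Col4a1 and Col4a2, near-constant proportions of the type I chains to each other, and less Col3a1, Col5a2 and Col5a3. Enough reads to be tested were present for 28 of the 44 chain genes, and all 44 had at least 1 read in some library. Among the 28, 19 were higher and 4 lower in EA and 5 were not called (edgeR, quasi-likelihood F test, threshold 0.05 on the Benjamini-Hochberg p over all 11777 tested genes). Over all tested genes 67.2% were called, 33.1% as higher and 34.2% as lower, so being called was common, while 82.1% of the tested chains were called, 67.9% as higher and 14.3% as lower. The 23 called chains were also the 23 whose 4 EA libraries did not overlap the 4 control libraries after TMM scaling, a separation found for 60.6% of all tested genes (29.9% higher in EA and 30.7% lower). A rise of 1 or more on the log2 scale was seen in 11 tested chains, against 8.99% of all tested genes, and a fall of that size in 1 chain, against 8.68%. The median log2 fold change of the tested chains was 0.68, beside −0.02 over all tested genes.

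These directions are relative to TMM scaling, which sets the typical gene near 0. With library totals alone the median of all tested genes moved by −0.36, and the chains divided into 14 higher and 7 lower, against 16.5% of all genes higher and 61.1% lower under that scaling. With upper-quartile factors 19 chains were higher and 6 lower, against 24% and 45.3% of all genes. Of the 19 chains higher with TMM, 14 were also higher with library totals, and the 4 lower chains were lower with both. Col1a1, Col1a2, Col16a1, Col4a6 and Col20a1 lost their calls with library totals, and Col18a1, Col9a3 and Col11a2 gained one as lower. Of the chains called with TMM, Col1a1, Col1a2, Col16a1, Col4a6, Col20a1 and Col2a1 had overlapping groups in the deposited FPKM (counts per length and library total). Col18a1 and Col9a3, whose groups overlapped with TMM, were lower in all EA libraries in that FPKM. Ratios of chains within a library, given further on, do not depend on this choice.

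**Figure D1:**
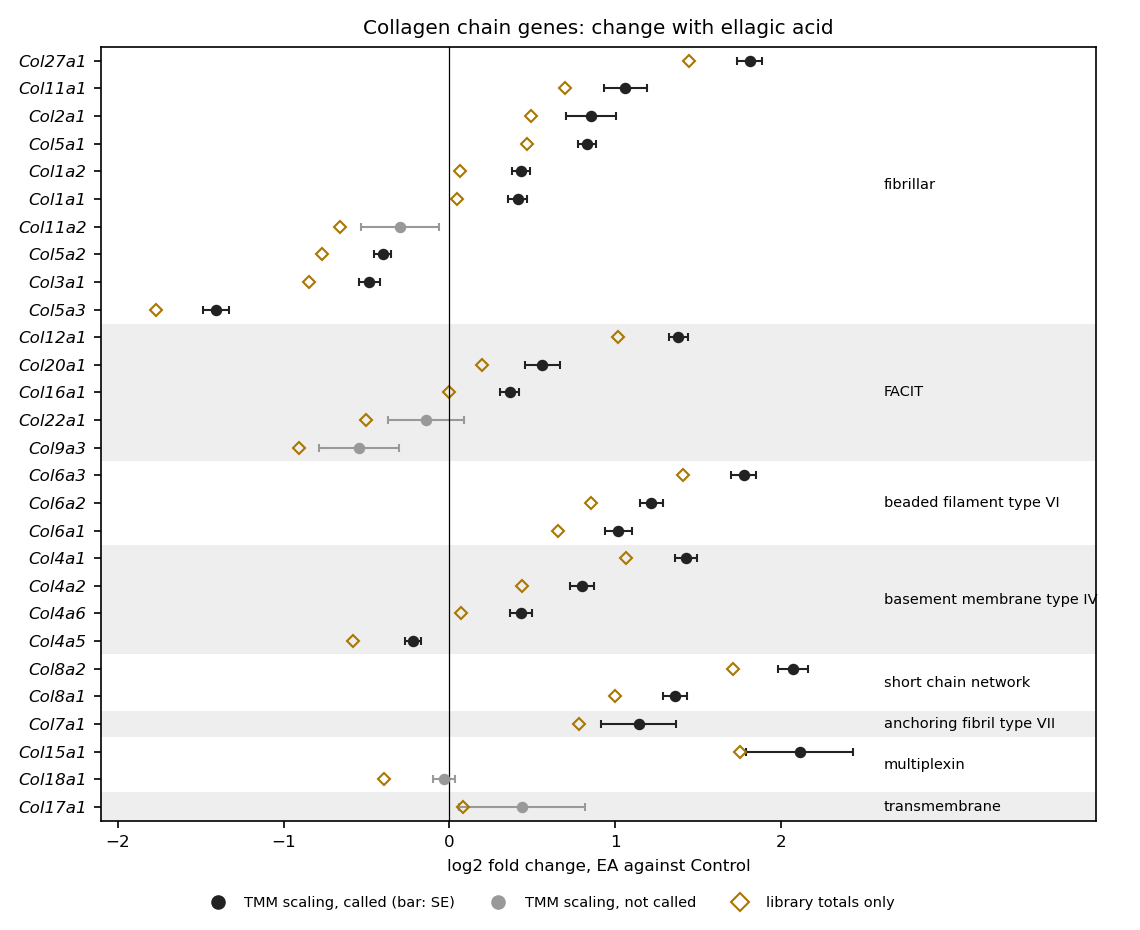
Log2 fold change of EA against Control for the 28 tested collagen chain genes, grouped by class, from the edgeR fit with TMM scaling (filled circles, bars are the SE, grey where not called) and with library totals alone (open diamonds). Col15a1, at 2.11, and Col8a2, at 2.07, lie farthest to the right and Col5a3, at −1.41, farthest to the left, and library totals move every gene to the left.

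Levels of different genes are compared below as TMM-scaled RPKM, which is TMM-scaled CPM divided by the deposited gene length in kilobases. Ranks, ratios and shares between genes rest on these lengths, which may not be those of the mRNAs expressed here. The fold change of a ratio between groups does not. Col1a1 and Col1a2, which encode both chains of type I collagen, the main protein of bone matrix, ranked highest of the chains by RPKM in both groups. In reads Col1a2 was above Col1a1, at 554422 against 394937 in control and 587438 against 412433 in EA, where Col12a1 had 463149. Col1a1 (chromosome 11, 94827050 to 94843868, build GRCm39) stood at 936, 815, 885 and 781 RPKM in control libraries 1 to 4 and at 1177, 1148, 1099 and 1118 in the EA libraries. Its partner Col1a2 (chromosome 6, 4504814 to 4541544) stood at 680, 623, 640 and 590 RPKM in control and at 866, 841, 838 and 868 in EA. All EA libraries were above all control libraries for both genes, with log2 fold changes of 0.41 ± 0.06 for Col1a1 and 0.43 ± 0.05 for Col1a2 (SE, adjusted p = 3.53e-06 and 5.93e-07, edgeR). With library totals these were 0.05 (adjusted p = 0.470) and 0.07 (adjusted p = 0.262), and as a share of all reads Col1a1 and Col1a2 together took 1.53 ± 0.106% in control and 1.59 ± 0.0295% in EA (SD, n = 4), with overlap between the groups. The direction of the type I chains against the whole transcriptome therefore rests on the scaling.

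The other abundant fibrillar chains were minor partners of type I. Col3a1 encodes the only chain of type III collagen, which copolymerises with type I in pliable tissues. It stood at 74.8, 71.8, 73.4 and 63.2 RPKM in control and at 49.9, 49.2, 46.6 and 57.1 in EA, lower in all EA libraries, with a log2 fold change of −0.48 ± 0.07 (adjusted p = 1.92e-06, edgeR). Type V collagen sits inside type I fibrils and starts their assembly, and its 3 chain genes went in different directions. Col5a1 rose from 114, 101, 104 and 102 RPKM in control to 189, 196, 178 and 186 in EA, 1.78-fold, with no overlap. Col5a2, the usual partner chain, fell from 192, 178, 178 and 191 RPKM to 137, 147, 131 and 144, a log2 fold change of −0.40 ± 0.05 (adjusted p = 1.26e-06). Col5a3, a chain of less common type V trimers, had the largest fall of the family, from 27.4, 25.0, 28.2 and 21.2 RPKM to 9.59, 10.2, 9.10 and 9.43, and was 2.65-fold lower (log2 fold change −1.41 ± 0.08, adjusted p = 5.33e-12). Col3a1 and Col5a2 lie tail to tail on chromosome 1 with 24614 bases and no other gene of the table between them, and both fell.

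**Figure D2:**
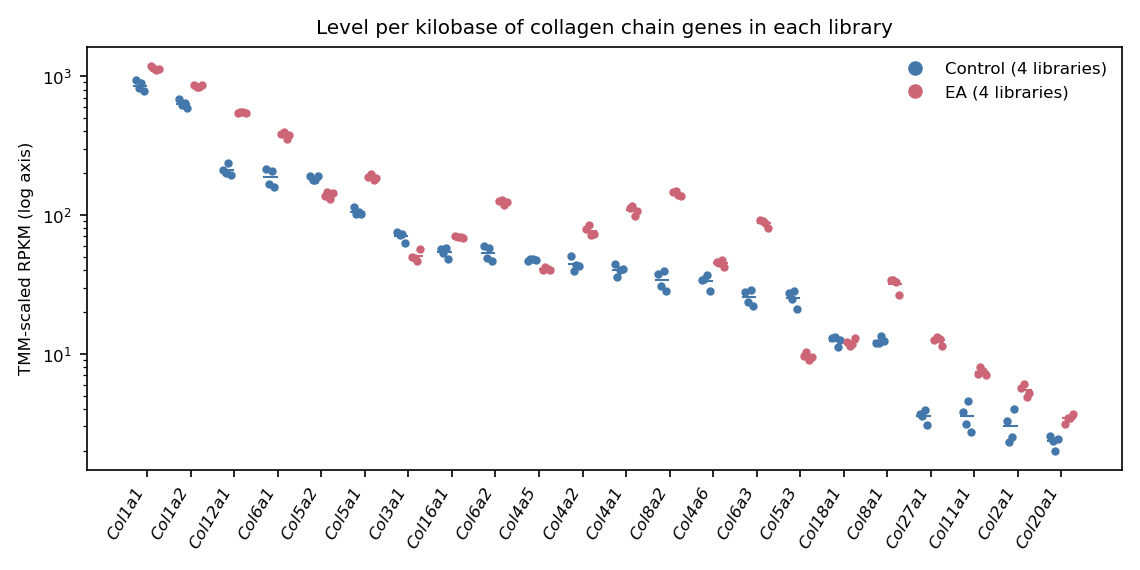
TMM-scaled RPKM (log axis) of the 22 tested collagen chain genes with a mean of at least 10 CPM, ordered by their control mean, with 1 point per library and a line at the group mean (blue Control, red EA). Col1a1 and Col1a2 lie above all other chains, Col5a2, Col3a1, Col4a5 and Col5a3 are lower in EA, and Col18a1 overlaps.

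Fibrillar chains known from cartilage were present at low level and rose. Col27a1, which encodes type XXVII collagen, stood at 3.70, 3.54, 3.97 and 3.09 RPKM in control and at 12.7, 13.3, 12.7 and 11.5 in EA, a rise of 3.51-fold (log2 fold change 1.81 ± 0.07, adjusted p = 1.14e-14, edgeR). Col11a1, a type XI chain, went from 3.79, 3.14, 4.59 and 2.74 RPKM to 7.22, 8.03, 7.50 and 6.99 and rose 2.09-fold. Col2a1, the chain of type II collagen of cartilage, went from 3.28, 2.32, 2.51 and 4.0 RPKM to 5.72, 6.10, 4.92 and 5.20 and rose 1.81-fold (log2 fold change 0.85 ± 0.15, adjusted p = 0.000334). None of these 3 genes had overlapping groups with TMM scaling. In the deposited FPKM Col2a1 overlapped, with control library 4 at 4.51 and EA library 3 at 4.35. Col11a2, the partner of Col11a1, was not called at 0.443 ± 0.118 RPKM in control and 0.363 ± 0.0724 in EA (SD, n = 4, log2 fold change −0.30, 95% interval −0.76 to 0.17). Beside these chains, the summed level of 7 chondrocyte markers was 44.4 to 50.1 CPM in control and 252 to 267 in EA, nearly all of it the transcription factor gene Sox9 at 47.0 ± 2.44 and 256 ± 6.15, while Acan, the main cartilage proteoglycan gene, had 1 read in all control libraries together and 0 in EA. The part of such cells in the rise of the cartilage chains was not tested.

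Of 5 tested FACIT genes 3 were higher, led by Col12a1. That is 60% called, all as higher, beside 67.2% of all tested genes called and 33.1% called as higher. With library totals 1 FACIT gene was higher and 1 lower. Type XII collagen binds the surface of type I fibrils, and its gene ranked just below the type I genes among the chains by RPKM in both groups. Col12a1 (chromosome 9, 79506273 to 79626113) stood at 210, 201, 236 and 195 RPKM in control and at 546, 554, 548 and 546 in EA. The 4 EA libraries lay close together and far above control, a rise of 2.60-fold (log2 fold change 1.38 ± 0.06, adjusted p = 2.72e-14, edgeR). Col16a1, for type XVI, went from 56.9, 53.4, 58.1 and 48.1 RPKM to 70.6, 69.9, 69.7 and 68.0 and rose by 0.36 ± 0.06 on the log2 scale, a rise that was gone with library totals (adjusted p = 0.989). Col20a1, for type XX, went from 2.55, 2.36, 1.99 and 2.45 RPKM to 3.14, 3.48, 3.47 and 3.68, a log2 fold change of 0.56 ± 0.11 (adjusted p = 9.74e-05) and of 0.20 with library totals (adjusted p = 0.0945). Col9a3, for a type IX chain, had 233 reads in control and 127 in EA and was just short of the threshold (log2 fold change −0.54, 95% interval −1.01 to −0.07, adjusted p = 0.0514). Single libraries moved it both ways, from −0.39 without EA library 1 (adjusted p = 0.169, edgeR) to −0.73 without EA library 3 (adjusted p = 0.0199). It also passed as lower without control library 4 (−0.61) or EA library 4 (−0.65), and did not pass without EA library 2 (−0.43) or without control library 1 (−0.50), 2 (−0.45) or 3 (−0.58). Col22a1 was not called (log2 fold change −0.14, 95% interval −0.59 to 0.30).

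All 3 chains of the common type VI heterotrimer rose, while Col6a4, Col6a5 and Col6a6, the alternative partner chains, had between 2 and 30 reads each over all 8 libraries. Col6a1 (chromosome 10, 76544626 to 76562002) stood at 213, 168, 206 and 160 RPKM in control and at 383, 398, 352 and 379 in EA, a rise of 2.02-fold. Col6a2, its neighbour on the same strand 85161 bases away, went from 59.6, 49.4, 58.0 and 46.3 RPKM to 126, 129, 118 and 124 and rose 2.33-fold. Col6a3, on chromosome 1, went from 27.8, 23.6, 28.9 and 22.3 RPKM to 91.9, 89.8, 88.2 and 80.9 and rose 3.42-fold (log2 fold change 1.77 ± 0.08, adjusted p = 5.69e-13, edgeR). For each of the 3 genes control libraries 1 and 3 were above control libraries 2 and 4, and all 4 were below every EA library.

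Type IV collagen genes lie in head-to-head pairs, in which the chains of a pair are transcribed away from each other. In the deposited GRCm39 coordinates Col4a1 (chromosome 8, 11248423 to 11362826) and Col4a2 (11362805 to 11499287) overlap by 22 bases at their starts, and Col4a6 and Col4a5 on chromosome X are 1308 bases apart. The 300-base windows around the starts of these 4 genes (250 bases before the start and 50 after, RefSeq, build GRCm38.p6, each written on its gene's own strand) are shown because partner genes that begin so near each other differed in response. Capitals mark GC boxes (GGGCGG) and CCAAT boxes (CCAAT) on either strand.
Col4a1: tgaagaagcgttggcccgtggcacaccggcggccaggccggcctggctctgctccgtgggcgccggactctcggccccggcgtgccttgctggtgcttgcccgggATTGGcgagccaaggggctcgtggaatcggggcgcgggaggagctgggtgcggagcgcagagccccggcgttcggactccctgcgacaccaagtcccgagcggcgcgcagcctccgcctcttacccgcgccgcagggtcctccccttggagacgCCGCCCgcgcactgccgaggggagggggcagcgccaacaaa
Col4a2: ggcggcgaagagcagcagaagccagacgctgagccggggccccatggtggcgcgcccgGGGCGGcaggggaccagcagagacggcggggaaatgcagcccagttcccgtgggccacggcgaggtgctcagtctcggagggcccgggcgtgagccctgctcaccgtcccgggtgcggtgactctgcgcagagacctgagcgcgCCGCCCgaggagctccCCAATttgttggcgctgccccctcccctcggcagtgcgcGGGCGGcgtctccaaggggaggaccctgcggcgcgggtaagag
Col4a5: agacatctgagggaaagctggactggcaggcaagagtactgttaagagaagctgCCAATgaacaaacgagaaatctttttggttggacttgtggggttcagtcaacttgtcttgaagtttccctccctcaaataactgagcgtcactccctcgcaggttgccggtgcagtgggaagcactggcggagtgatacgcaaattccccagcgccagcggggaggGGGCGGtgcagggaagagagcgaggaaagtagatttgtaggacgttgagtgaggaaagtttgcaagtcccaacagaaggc
Col4a6: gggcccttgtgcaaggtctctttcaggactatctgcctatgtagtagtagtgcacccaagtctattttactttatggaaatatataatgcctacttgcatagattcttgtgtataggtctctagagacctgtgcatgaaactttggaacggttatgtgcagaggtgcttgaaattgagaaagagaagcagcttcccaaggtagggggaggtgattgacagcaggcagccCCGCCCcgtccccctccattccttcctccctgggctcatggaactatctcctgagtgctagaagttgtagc

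The Col4a1 window is chr8:11312777-11313076 (minus strand), the Col4a2 window chr8:11312555-11312854 (plus strand), the Col4a5 window chrX:141475169-141475468 (plus strand) and the Col4a6 window chrX:141474027-141474326 (minus strand), all in GRCm38.p6. The Col4a1 and Col4a2 windows share 78 bases with 1 GC box, have starts 21 bases apart and are rich in G and C, at 74.0% and 73.7%. The Col4a5 and Col4a6 windows do not meet, have starts 1343 bases apart and hold 52.7% and 48.3% G and C. Windows were found for 35 of the 44 chain genes, 38 windows in all. Among these, 60.5% held a GC box, beside 35.7% of all 32851 windows of this length, 34.2% held CCAAT beside 37.4%, 13.2% held TATAAA beside 13.6%, and 23.7% held CAGACA, a sequence that SMAD proteins can bind, beside 21.0%. Both strands were searched, no motif contains another, and a match describes letters and not a bound site.

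In type IV collagen the widespread trimer combines Col4a1 and Col4a2 chains, and trimers of Col4a5 and Col4a6 chains occur in some basement membranes. Col4a1 went from 44.4, 35.8, 40.1 and 41.0 RPKM in control to 112, 115, 99.1 and 108 in EA and rose 2.69-fold (log2 fold change 1.43 ± 0.07, adjusted p = 7.31e-14, edgeR). Col4a2 went from 51.1, 39.3, 43.8 and 43.1 RPKM to 79.5, 84.1, 72.1 and 72.9 and rose 1.74-fold. Both had separate groups. On the X chromosome Col4a5 was lower, at 46.7, 48.2, 48.0 and 47.2 RPKM in control and 40.4, 41.9, 40.6 and 40.3 in EA (log2 fold change −0.22 ± 0.05, adjusted p = 0.000539). Its neighbour Col4a6 went the other way with TMM scaling, from 33.8, 34.4, 36.9 and 28.5 RPKM to 46.1, 44.8, 47.1 and 41.9 (log2 fold change 0.43 ± 0.07, adjusted p = 1.22e-05), and was at 0.07 with library totals (adjusted p = 0.388). Col4a3 and Col4a4, the third head-to-head pair and known from kidney, had 28 and 81 reads over all libraries and were not tested.

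Both type VIII genes rose, and Col8a2 had the largest rise of the chains with at least 10 CPM. Type VIII collagen is a short-chain collagen of vessel walls and of the corneal endothelium. Col8a2 (chromosome 4, 126180586 to 126208123) went from 37.6, 30.6, 39.2 and 28.2 RPKM in control to 146, 148, 140 and 136 in EA, a rise of 4.20-fold (log2 fold change 2.07 ± 0.09, adjusted p = 1.33e-11, edgeR), and moved from rank 13 to rank 6 among the chains. Col8a1 went from 12, 12, 13.4 and 12.3 RPKM to 33.9, 34.1, 32.9 and 26.6, a rise of 2.57-fold with EA library 4 lowest. Col10a1, the third gene of the class and a marker of hypertrophic cartilage, had 6 reads in all.

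Among the remaining classes Col18a1 was the best measured and did not pass the test. It encodes type XVIII collagen, the source of endostatin, and stood at 13.0, 13.1, 11.1 and 12.5 RPKM in control and 12.2, 11.4, 11.8 and 13.1 in EA (log2 fold change −0.03, 95% interval −0.16 to 0.10). With library totals it was called as lower (−0.40, adjusted p = 1.58e-05), and its span overlaps that of Slc19a1 on the opposite strand by 8825 bases, so without a stated strand setting some of its reads could belong to that gene. Col15a1, the other multiplexin, had 44 reads in control and 151 in EA and rose 4.33-fold (log2 fold change 2.11 ± 0.32, adjusted p = 7.85e-06). Col7a1, for the anchoring fibrils below skin epithelium, had 143 and 249 reads and rose 2.21-fold (adjusted p = 0.000156). Col17a1, a transmembrane collagen of hemidesmosomes, had 48 and 51 reads and was not called (log2 fold change 0.44, 95% interval −0.31 to 1.19).

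The other 16 chain genes had 2 to 86 reads each over all libraries and were not tested. They were Col14a1, Col4a4, Col24a1, Col6a4, Col4a3, Col23a1, Col9a2, Col6a5, Col25a1, Col10a1, Col28a1, Col9a1, Col19a1, Col6a6, Col13a1 and Col26a1. Col14a1, a FACIT, had the most, with 46 reads in control and 40 in EA. Col25a1, Col9a1 and Col19a1 had 0 reads in control and 7, 3 and 2 in EA. A count of 0 in the 62228489 control reads allows up to 0.0482 CPM on library totals (3 counts over the group), so these genes were not detectable in control at this depth. Col23a1 had 6 reads in control and 18 in EA, 11 of them in EA library 2.

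Ratios of chain levels within a library do not depend on scaling between libraries, and 9 pairs were compared. The pairs were chosen with earlier results of these data known, and no share over other gene pairs is given. Single genes separated the groups without overlap in 60.6% of all tested genes, so separation was common in these data. Of the 9 pairs, 8 differed with no overlap between groups, each at an exact two-sided permutation p = 0.0286, the smallest that 70 assignments allow (adjusted p = 0.0321 over the 9 pairs). The exception was type I, whose ratio of Col1a1 to Col1a2 FPKM was 1.35 ± 0.0370 in control and 1.33 ± 0.0371 in EA (SD, n = 4, exact p = 0.514). Single EA libraries differed from single control libraries by 0.932-fold to 1.04-fold in this ratio. The ratio of Col3a1 to Col1a1 went from 0.0799, 0.0881, 0.0829 and 0.0809 in control to 0.0424, 0.0429, 0.0424 and 0.0511 in EA, 1.86-fold lower.

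Per deposited gene length, type V and type IV chains changed order. Col5a1 to Col5a2 was 0.593, 0.569, 0.586 and 0.536 in control and 1.38, 1.34, 1.35 and 1.30 in EA, so that Col5a2 was the higher of the pair in every control library and Col5a1 in every EA library. Col5a3 to Col5a1 went from 0.241 ± 0.0260 to 0.0512 ± 0.000699, the largest change of the 9 ratios at 4.69-fold lower. Col4a1 to Col4a2 was 0.870, 0.912, 0.914 and 0.951 in control and 1.40, 1.37, 1.37 and 1.48 in EA, crossing from below to above equal level. Col4a5 to Col4a6 crossed the other way, from 1.38, 1.40, 1.30 and 1.66 to 0.877, 0.935, 0.862 and 0.962. The crossing of Col4a1 and Col4a2 rests on their deposited lengths of 7464 and 6619 bases. In reads summed over each group, Col4a1 was above Col4a2 in control (21252 against 20701) and in EA (44695 against 28229). Thus the partner genes of both tested head-to-head pairs changed unequally.

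The type VI and type VIII ratios shifted without a change of order. Col6a1 to Col6a2 fell least of the ratios that changed, from 3.50 ± 0.0766 to 3.05 ± 0.0482, a log2 change of −0.20. Col6a3 to Col6a1 rose 1.69-fold, from 0.137 ± 0.00484 to 0.232 ± 0.0163. Col8a1 to Col8a2 went from 0.372 ± 0.0524 to 0.223 ± 0.0186, 1.66-fold lower, since Col8a2 rose more than Col8a1.

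**Figure D3:**
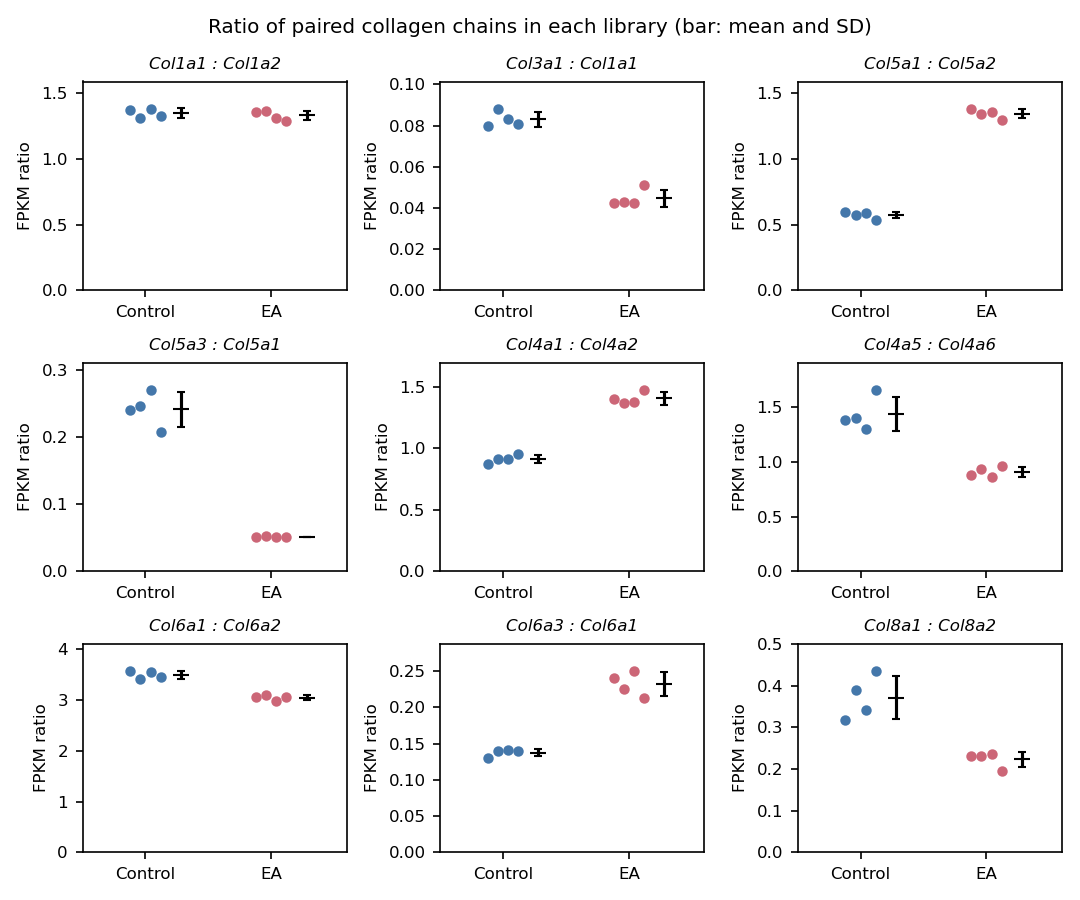
Ratio of FPKM of 9 chain pairs in each library (points, blue Control and red EA, 4 libraries each), with the mean and SD beside them and axes starting at 0. The Col1a1 to Col1a2 ratio overlaps at 1.35 and 1.33, and the other 8 ratios have separate groups.

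As a share of the summed RPKM of all 44 chains, which also needs no scaling between libraries, the fibrillar class went from 71.3 ± 0.895% in control to 59.0 ± 0.457% in EA (SD, n = 4). As a share of all reads the fibrillar class overlapped between groups, at 1.94 ± 0.120% and 1.93 ± 0.0365%, while the FACIT share of all reads went from 0.407 ± 0.0365% to 0.779 ± 0.00678% and that of type VI from 0.178 ± 0.0239% to 0.329 ± 0.0124%, both with no overlap. Within the summed RPKM, Col1a1 and Col1a2 made up most of the fibrillar class, at 56.3 ± 0.562% and 48.8 ± 0.568%. The FACIT class went from 10.2 ± 0.543% to 15.3 ± 0.335%, with Col12a1 alone at 7.97 ± 0.501% and 13.5 ± 0.294%. Type VI went from 10.0 ± 0.688% to 14.5 ± 0.304% and the short-chain class from 1.75 ± 0.119% to 4.28 ± 0.174%. For these 4 classes the groups did not overlap, whereas type IV, at 6.27 ± 0.178% and 6.66 ± 0.183%, overlapped. As a share of all reads type IV went from 0.134 ± 0.00688% to 0.172 ± 0.00794% with no overlap. The small multiplexin class went from 0.477 ± 0.0537% to 0.309 ± 0.0209% of the summed RPKM, also with no overlap. Being a sum over members, these shares were given no test.

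**Figure D4:**
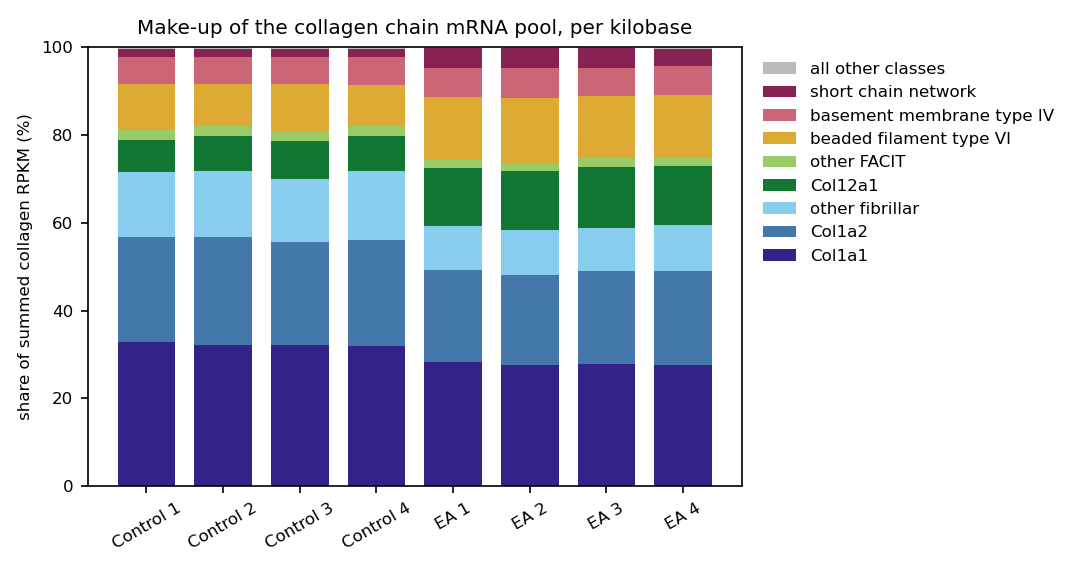
Share of the summed collagen RPKM (%) held by Col1a1, Col1a2, the other fibrillar chains, Col12a1, the other FACITs and the remaining classes in each of the 8 libraries. The fibrillar share averages 71.3% in control and 59.0% in EA.

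All 44 chains together took 2.87%, 2.61%, 2.82% and 2.50% of reads in control libraries 1 to 4 and 3.34%, 3.34%, 3.23% and 3.27% in the EA libraries, with no overlap. Of this difference of 0.595 points, 0.372 points were in Col12a1, whose read share went from 0.364 ± 0.0335% to 0.736 ± 0.00639% (SD, n = 4). As a share of summed FPKM, which counts per length, the chains took 1.17 ± 0.0739% in control and 1.42 ± 0.0220% in EA, a difference of 0.250 points with no overlap.

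Replicates of the control group varied more than those of EA for these genes. Among the 22 chains with at least 1000 reads, the median coefficient of variation was 9.53% in control and 5.03% in EA, and it was larger in control for 18 of the 22, or 81.8%. Over all 9114 genes with as many reads the medians were 7.63% and 6.37%, and 59.0% varied more in control. For 14 of the 28 tested chains, among them Col1a1, Col12a1, Col6a1, Col6a2, Col6a3, Col8a2 and Col5a3, control libraries 1 and 3 both lay above control libraries 2 and 4, against 21.1% of all tested genes. The opposite order held for 3 chains, against 21.9%. This division was noticed after the values were seen and was not tested.

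Genes that process, bind or cut collagen were counted in 5 lists, to be read against all tested genes, of which 33.1% were higher and 34.2% lower with TMM scaling and 16.5% and 61.1% with library totals. Of 18 tested hydroxylation and folding genes 11 were higher and 5 lower with a median log2 fold change of 0.27, led by Plod2, which hydroxylates lysines used in cross-links, at 4.98-fold higher (adjusted p = 1.15e-17, edgeR), and by P3h2, a prolyl 3-hydroxylase, at 2.09-fold lower. With library totals this list had 6 higher and 8 lower. Of 5 tested genes of propeptide removal 3 were called, a share no larger than the 67.2% of all tested genes, with 2 higher and 1 lower and a median of 0.12, Pcolce2, an enhancer of that step, rising 2.70-fold and Adamts14, a procollagen proteinase, falling 1.45-fold, and with library totals 1 was higher and 3 lower. All 5 cross-linking genes were tested, with a median of 1.78, and 4 were higher, led by Lox at 7.86-fold, while Loxl4 was 1.55-fold lower. Among 7 tested collagen receptors, with a median of 1.07, 5 were higher, with the receptor kinase gene Ddr1 at 3.35-fold, and 2 were lower, with Ddr2 at 1.56-fold. Of 5 tested collagen-cutting proteases, with a median of 0.49, 3 were higher, with the membrane protease gene Mmp14 at 2.36-fold, and 1 lower, the gelatinase gene Mmp9 at 1.89-fold. With library totals 2 of these proteases were higher and 2 lower.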

How the data were processed

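Poly(A) RNA libraries of 4 Control and 4 EA samples were analysed from 1 gene table. Read counts per gene were made and deposited by the authors, with cutadapt 1.15, HISAT2 2.0.5 and build GRCm39 named in the submitters' processing notes. Which counter, strand setting and annotation release they used is not stated there. FPKM values were deposited by the authors, and 175192 of them were recomputed here from count, gene length and column total with a largest relative deviation of 3.56e-14. Gene coordinates and lengths are other deposited columns.

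The count model was edgeR 4.0.16 under R 4.3.3 (TMM factors, default count filter by group, robust quasi-likelihood F test without covariates) over 11777 genes, called at an adjusted p under 0.05. The SE is the log2 fold change divided by the square root of F, and 95% intervals are derived from it. No replicates were counted as 1 sample. The edgeR test was checked on simulated data with 200 of 11777 genes changed, of which 191 were recovered, with 9 false calls. Far fewer genes were changed there than the 67.2% called here, so the simulation could not check the choice of scaling. DESeq2 1.42.0 and limma 3.58.1 served as alternatives. Chain ratios were tested by exact permutation. Values in every library are given for called chains of at least 10 CPM. Promoter windows are from RefSeq (GRCm38.p6), and of the neighbouring tested chains only the head-to-head pairs are printed. The collagen genes, classes, chain pairs and lists were chosen with earlier results of these data known, and motifs were chosen after the files were seen. Counting intervals and floors cover counting error only.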

Additional observations from a re-analysis of the deposited data

Results flagged for a closer look

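In 6 cases a value lay far from the other 3 libraries of their group by Dixon's gap test at 95%, of 76 groups of 4 looked at, and chance marks about 1 group in 20. In EA library 4 Col8a1 was at 26.6 RPKM, below 32.9 to 34.1 in the others, and the Col8a1 to Col8a2 ratio was 0.196, below 0.231 to 0.235. The Col3a1 to Col1a1 ratio in the same library was 0.0511, above 0.0424 to 0.0429 in the other EA libraries. Col17a1 was at 0.267 RPKM in EA library 1, above 0.108 to 0.130. Col22a1 was at 0.226 RPKM in control library 4, below 0.330 to 0.346. The Col6a3 to Col6a1 ratio was 0.130 in control library 1, below 0.139 to 0.141.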

How the results depend on the processing

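The count of higher chains was 14 to 20 over all alternatives, and that of lower chains was 7 with library totals and with limma on log2(FPKM + 1) or log2(FPKM + 0.1), against 4. Without a count filter the only untested chain that passed was Col25a1, with 0 reads in control and 7 in EA. Leaving out each library gave 19 higher chains throughout and 4 to 5 lower. Over 502 combinations of a chain and an alternative, 470 kept direction and side of the threshold, 14 fell below it, 17 passed it and 1 turned, Col16a1 at −0.0010 with library totals. Those changes touched 8 of 28 chains. Chains tested with CPM above 1 in all 8 libraries numbered 26. In edgeR the replicate block gave 19 higher and 4 lower and changed no call of a chain. Replicate numbers did not pair the libraries, with correlations of deviations from −0.0215 to 0.0266.

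The difference in collagen share of reads was 0.250 points with summed FPKM and 0.744 points without the 10 most counted other genes, against 0.595, and 0.527 to 0.652 points without single libraries. With the replicate block, an exact sign-flip test over 4 pairs cannot go below p = 0.125, so the log2 changes of the ratios, −0.90 for Col3a1 to Col1a1, 1.23 for Col5a1 to Col5a2, −2.23 for Col5a3 to Col5a1, 0.63 for Col4a1 to Col4a2, −0.66 for Col4a5 to Col4a6, −0.20 for Col6a1 to Col6a2, 0.76 for Col6a3 to Col6a1 and −0.73 for Col8a1 to Col8a2, could not pass there. Without single libraries they ranged from −0.96 to −0.87, 1.20 to 1.25, −2.30 to −2.17, 0.60 to 0.65, −0.70 to −0.58, −0.21 to −0.19, 0.72 to 0.80 and −0.80 to −0.65 in that order, and from −0.0319 to −0.0020 for Col1a1 to Col1a2.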
